A study of Mus musculus with 6 samples.

Results

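*Unc5a* and its relatives in the netrin system were followed in RNA-seq of mouse quadriceps muscle. The 8 genes were the netrin receptors *Unc5a*, *Unc5b*, *Unc5c*, *Unc5d*, *Dcc* and *Neo1* and the ligands *Ntn1* and *Ntn4*, out of 27179 genes in the count files. The set was chosen by the readout itself: *Unc5a* was selected on its strong fall in the same libraries. The relatives were taken from its receptor family and ligands to ask whether they fell too. The level of *Unc5a* is therefore given as a description, without a test, and tests are given for the 7 relatives. The relatives were picked with earlier results of these data known. Other netrins (*Ntn3*, *Ntn5*, *Ntng1* and *Ntng2*) are not among them and are counted with the pathway list. All 8 genes passed the filter on low counts and were among 16483 genes tested.

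The study deleted *Dnm1l*, which encodes the mitochondrial fission protein DRP1, in adult skeletal muscle. The knockout (miDrp1KO) mice carried floxed *Dnm1l* and HSA-MerCreMer, a tamoxifen-inducible Cre driven by the promoter of human skeletal actin, which is active in muscle fibres, so other cells of the muscle should keep the gene. Controls, labelled control f/f, carried floxed *Dnm1l* (the methods also allow flox/+), and the sources name no Cre for them. Male mice of both groups were on a C57BL/6J background, received tamoxifen at 3 months of age for 4 days and ate normal chow, and quadriceps was taken 3 weeks after deletion, after 6 h of fasting. Of the 6 libraries, the 3 controls are called B, C and D and the 3 knockouts A, E and F, and values are given in that order. The study describes 3 mice in each group, and p-values measure the spread between their libraries. Presence of Cre and loss of *Dnm1l* cannot be told apart in these groups.

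Netrins are secreted proteins related to laminins that guide growing axons and also act on vessels, epithelia and muscle precursors. DCC and its relative neogenin, encoded by *Neo1*, mostly mediate attraction to netrin, while the UNC5 receptors mediate repulsion, alone or together with DCC. UNC5 receptors and DCC are also known as dependence receptors, which signal for survival when the ligand is bound and can trigger cell death when it is absent. In muscle, neogenin is known for its part in myoblast differentiation, and it also binds repulsive guidance molecules, one of which, hemojuvelin, is made by muscle.

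Control libraries held 13989588 to 62042255 counts and miDrp1KO libraries 20028624 to 28829756. Levels are given as CPM, the count over the library's total in units of 1e6 counts, scaled with TMM, a normalization that assumes most genes do not change. The targeted gene *Dnm1l* was at 137 ± 21.2 CPM in controls and 72.7 ± 7.76 CPM in miDrp1KO muscle (SD, n = 3 each), and every miDrp1KO library lay below every control library. *Esr1*, the mouse gene whose hormone-binding part the MerCreMer fusion carries, was at 37.7 ± 4.72 CPM in controls and 551 ± 141 CPM in miDrp1KO libraries (SD, n = 3 each). The 12 myofibre markers, such as *Acta1* and *Ckm*, made up 25.6 to 31.1% of the scaled total in controls and 11.9 to 23.6% in miDrp1KO libraries, with no marker at 0. All 6 libraries thus held high levels of skeletal muscle transcripts. Of the 12 markers, 3 (25%, beside 6.22% of all genes tested) were lower at an unadjusted p under 0.05, 0 at an adjusted p in edgeR. Much of the sum was *Ttn*, at a mean of 122650 and 65649 CPM, and *Myh4*, at 57018 and 23265 CPM, whereas *Mylpf* was at 8546 and 8364 CPM and *Pvalb* at 7501 and 7648 CPM.

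*Unc5a* encodes an UNC5 receptor that is best known from the nervous system. Its count was 157, 132 and 401 in the controls (B, C, D) against 24, 49 and 10 in the knockouts (A, E, F). On the CPM scale these were 7.43, 9.62 and 6.68 in controls and 1.17, 1.20 and 0.480 in miDrp1KO muscle. All 3 miDrp1KO libraries were far below all 3 controls, and the closest pair of libraries from opposite groups differed 5.56-fold. The mean level was 7.91 ± 1.53 CPM in controls and 0.949 ± 0.407 CPM in miDrp1KO muscle (SD, n = 3 each), 8.33-fold lower, or a log2 fold change of -3.01 (SE 0.33). This was the lowest log2 fold change among the 16483 genes tested. The lowest level, that of replicate F, had an exact 95% Poisson interval of 0.230 to 0.883 CPM, which covers counting error only. In bulk tissue, fewer cells of a type and less RNA per cell cannot be told apart, and no cell type can be assigned to the *Unc5a* reads.

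**Figure D1:**
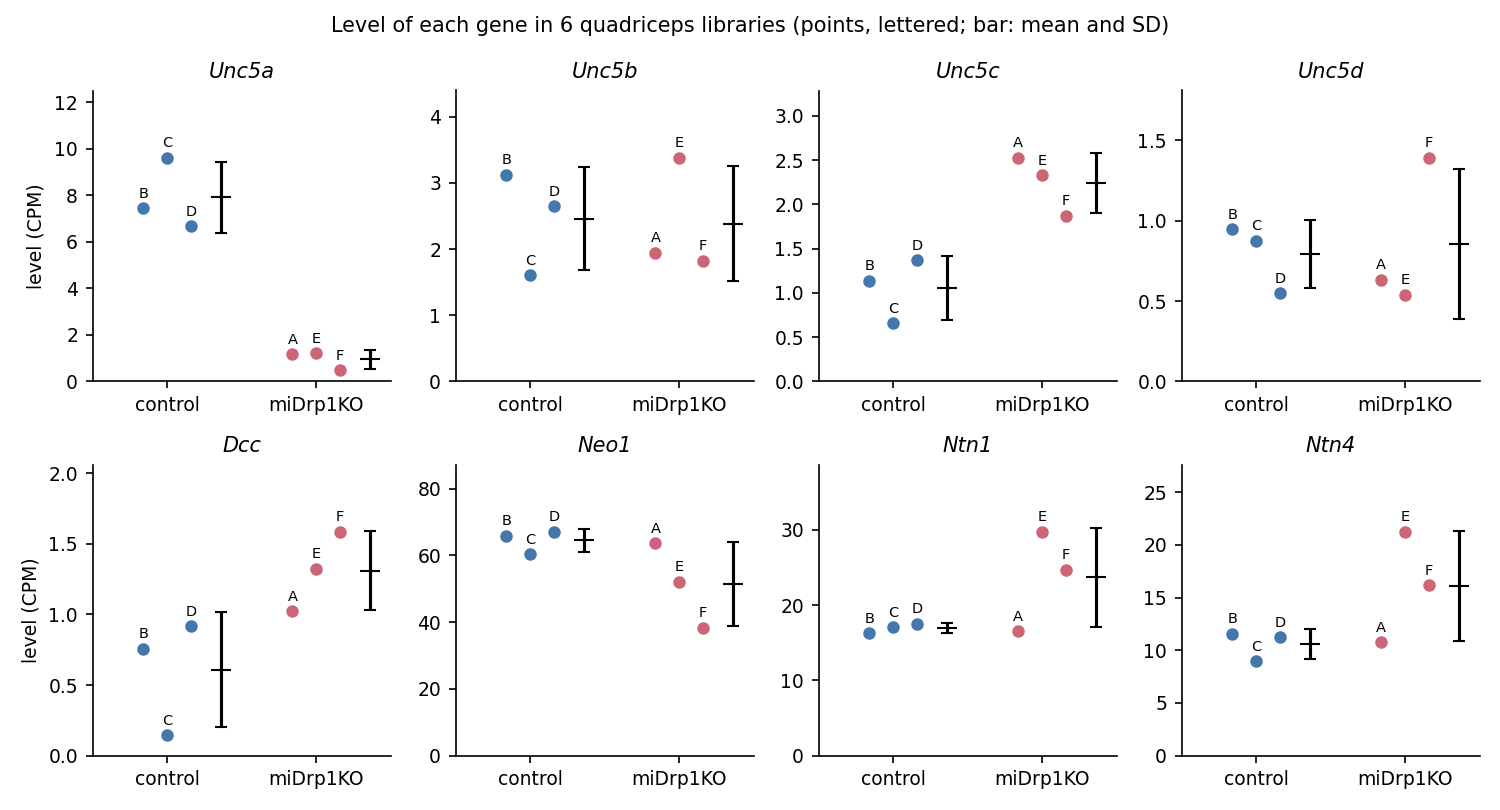
Level (CPM, linear axes from 0, 1 panel per gene) of the 8 genes in each of the 6 libraries, as lettered points, with the group mean and SD as a bar beside them. *Unc5a* is the gene whose miDrp1KO points, 0.480 to 1.20 CPM, lie well under all its control points, 6.68 to 9.62 CPM.

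*Unc5a* lies on chromosome 13 (GRCm38, GENCODE vM21 gene model 54949411 to 55006018, plus strand, 4168 exon bases). The 3 nearest tested genes on each side were compared to see whether the fall extended along the chromosome. *Rnf44*, *Gprin1* and *Tspan17* on the near side had log2 fold changes of -0.43, 0.21 and -0.30, and *Uimc1* and *Zfp346* on the far side -0.23 and -0.07. None of the 5 passed the test (adjusted p 0.584 to 0.954, edgeR with Benjamini-Hochberg adjustment). *Hk3*, a hexokinase gene whose last exon bases meet those of *Unc5a* on the opposite strand, went the other way: it was at 1.17 ± 0.301 CPM in controls and 2.13 ± 0.529 CPM in miDrp1KO muscle (SD, n = 3 each), without overlap between the groups. Its log2 fold change of 0.91 (SE 0.35) had an edgeR adjusted p of 0.407. The shared stretch is 34 of the 4168 exon bases of *Unc5a*. How the counting treated strand and overlapping exons is not stated, although the library kit marks strand.

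The promoter windows of *Unc5a* and of *Unc5b* are shown here because they put the gene that fell beside its most abundant UNC5 relative in controls. Both are the 250 bases before the start site in the RefSeq promoter table (GRCm38.p6), *Unc5a* at chr13:54949161-54949410 on the plus strand and *Unc5b* at chr10:60831582-60831831 on the minus strand, written 5′ to 3′ on the strand of the gene. Capitals mark the letters of a GC box, GGGCGG searched on both strands. In both windows every match reads ccgccc, on the reverse strand.
Unc5a: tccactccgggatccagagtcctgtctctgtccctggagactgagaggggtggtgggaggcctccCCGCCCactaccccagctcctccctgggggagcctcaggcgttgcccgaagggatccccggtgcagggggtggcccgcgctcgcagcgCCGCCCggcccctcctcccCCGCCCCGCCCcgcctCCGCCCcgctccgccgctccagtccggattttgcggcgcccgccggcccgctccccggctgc
Unc5b: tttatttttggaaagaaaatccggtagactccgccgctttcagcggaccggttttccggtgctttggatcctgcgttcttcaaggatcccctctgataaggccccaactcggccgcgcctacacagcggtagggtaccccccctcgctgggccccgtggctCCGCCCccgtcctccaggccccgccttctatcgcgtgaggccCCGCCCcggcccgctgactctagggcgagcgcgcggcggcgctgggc

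The *Unc5a* window holds 5 GC box matches, whose first bases lie at positions -185, -97, -78, -73 and -62 from the start site, and the 2 at -78 and -73 overlap by 1 base. The *Unc5b* window holds 2, at -89 and -47. Of 32851 RefSeq windows of the same length, from 27025 genes, 32.7% hold at least 1 GC box. *Unc5a* has 76.8% G and C in this window, more than 97.2% of all windows, against 66.8% for *Unc5b*. Windows were matched for 5 of the 8 genes (*Unc5a*, *Unc5b*, *Unc5c*, *Neo1* and *Ntn4*), and GC box letters were found in 4 of them, all but *Unc5c*. Of these 5, *Neo1* had the highest share of G and C, at 83.2% (more than 99.6% of all windows), and *Unc5b* the lowest. *Ntn4* had 73.2% and *Unc5c* 71.2%. The *Ntn4* window holds 4 GC box matches and that of *Neo1* 1. A high share of G and C was thus not particular to *Unc5a*. The RefSeq windows of *Unc5c* and *Ntn4* lie inside the GENCODE gene models, which start further upstream, at 141465216 on chromosome 3 and 93640681 on chromosome 10, so these windows may hold transcribed bases and their matches are not upstream of every annotated start. The NBRE, AAAGGTCA, to which NR4A receptors such as the product of *Nr4a1* bind, was in 0 of the 5 windows and in 1.34% of all windows. The cAMP response element, TGACGTCA, was likewise in 0 of 5 (1.55% of all windows), and its half-site TGACG in 1, that of *Unc5c* at -79 (17.8%). The letters TATAAA (12.4%) and CANNTG (66.2%) were in 0 of the 5, CCAAT was in that of *Neo1* (33.8%), and AGGTCA, which lies within the NBRE, was in that of *Ntn4* (14%), all searched on both strands. These matches describe letters only, and a missing match says only that the letters are not in the window.

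None of the 7 relatives fell as *Unc5a* did, and the lowest bound of any of their 95% intervals was a log2 fold change of -0.99. No relative passed an adjusted p of 0.05 in edgeR's quasi-likelihood test, a call made for 0.0121% of all genes tested (2 of 16483). At an unadjusted p under 0.05, 0 of 7 relatives were lower in miDrp1KO muscle, where 6.22% of all genes tested were, and 3 of 7 (*Unc5c*, *Ntn1* and *Ntn4*) were higher, where 4.68% were. The 2 groups of libraries did not overlap for 0 relatives on the lower side, against 10.3% of all genes, and for 2 (*Unc5c* and *Dcc*) on the higher side, against 7.67%. Log2 fold changes were above 0 for 5 of the 7, beside 8572 of all 16483 genes tested, and below 0 for *Unc5b* and *Neo1*. The median of the 7 was 0.48, beside 0.02 over all genes tested. The count of 3 rests on few libraries: only *Unc5c* kept an unadjusted p under 0.05 without control replicate C or without miDrp1KO replicate E or F, which left 1 of 7. Without miDrp1KO replicate A, *Neo1* joined as the 1 relative lower at that level, and 4 relatives (*Unc5c*, *Dcc*, *Ntn1* and *Ntn4*) were higher without overlap. In that fit 3115 of 17845 genes passed the unadjusted p, against 1796 of 16483 with all libraries, and the groups did not overlap for 17.5% of all genes on the lower side and 20.2% on the higher side. *Neo1* was also the 1 relative lower without overlap when control replicate C (15.6% of all genes) or miDrp1KO replicate A was left out.

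**Figure D2:**
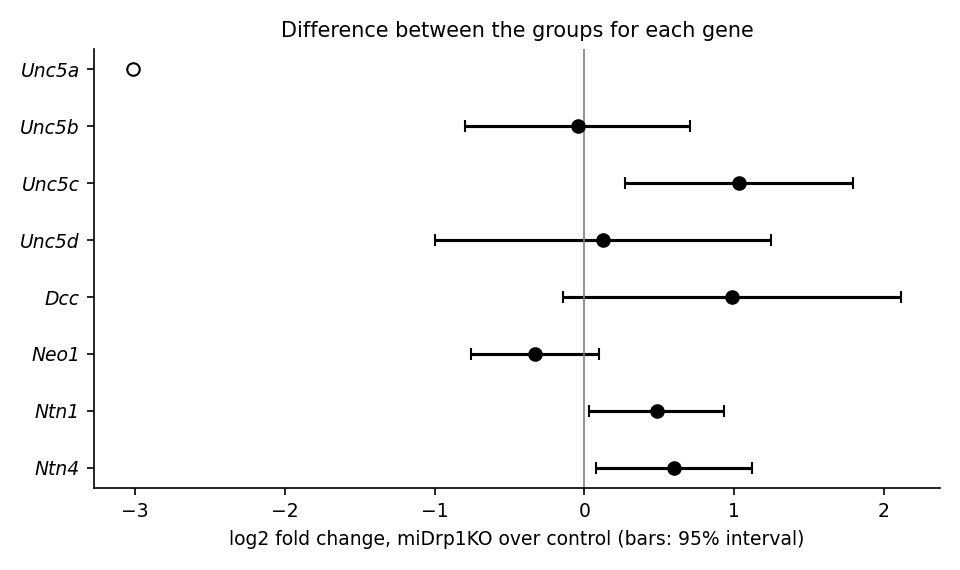
Log2 fold change (miDrp1KO over control, edgeR) of the 8 genes, with 95% intervals for the 7 relatives and an open point without an interval for *Unc5a*, which was chosen for its fall. *Unc5a* is at -3.01, while the relatives run from -0.33 (*Neo1*) to 1.03 (*Unc5c*).

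Among the other UNC5 receptors, *Unc5b*, which is known from vessel sprouting and is expressed in endothelial cells, was the most abundant in controls after *Unc5a* per kilobase of exon. It was at 3.13, 1.60 and 2.65 CPM in controls and 1.94, 3.38 and 1.82 CPM in A, E and F. The groups overlapped. The means were 2.46 ± 0.778 and 2.38 ± 0.867 CPM (SD, n = 3 each), and the log2 fold change was -0.04 with a 95% interval of -0.80 to 0.71 (edgeR adjusted p = 0.976). That interval does not reach the value of *Unc5a*, but it leaves room for changes of up to 0.80 on the log2 scale. The summed level of 12 endothelial markers, among them *Pecam1* and *Cdh5*, was 236 to 417 CPM in controls and 254 to 369 CPM in miDrp1KO libraries.

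*Unc5c* encodes a receptor known from the guidance of cerebellar and motor axons. In the edgeR fit of all 6 libraries it had the highest log2 fold change of the relatives, without passing the adjusted threshold. *Dcc* had the highest with limma voom and without control replicate B, control replicate D or miDrp1KO replicate A. The counts of *Unc5c* were 24, 9 and 82 in controls and 52, 95 and 39 in miDrp1KO replicates A, E and F. These were 1.14, 0.656 and 1.37 CPM against 2.53, 2.33 and 1.87 CPM. Every miDrp1KO library was above every control library, the closest pair by 1.37-fold. The mean was 1.05 ± 0.362 CPM in controls and 2.24 ± 0.336 CPM in miDrp1KO muscle (SD, n = 3 each), 2.13-fold higher, with a log2 fold change of 1.03 (SE 0.35, 95% interval 0.27 to 1.79). The unadjusted edgeR p was 0.0121 and the adjusted p 0.382, and the two-sided exact permutation p was 0.1, the smallest that 3 against 3 can give. *Unc5c* lies on chromosome 3 (141465216 to 141834924, plus strand) and shares 118 of 19135 exon bases with *Gm15688* on the opposite strand.

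*Unc5d*, a receptor for FLRT proteins as well as for netrin, was near the limit of these libraries. It had 20, 12 and 33 counts in controls and 13, 22 and 29 in miDrp1KO replicates A, E and F, which gives 0.947, 0.875 and 0.550 CPM against 0.632, 0.539 and 1.39 CPM. Replicate F was the highest of all 6, and the other two miDrp1KO libraries were within or under the control range. The log2 fold change was 0.13 with a 95% interval of -0.99 to 1.25 (edgeR adjusted p = 0.953), which leaves room for a fall or a rise within those bounds.

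The mixture of UNC5 transcripts was described per library. Levels were divided by the exon length of each gene model to compare genes. *Unc5a* supplied 72.9, 85.7 and 74.3% of the summed UNC5 level per kilobase in the controls (B, C, D) against 35.4, 28.6 and 17.6% in the knockouts (A, E, F). By exon length *Unc5b* took the largest share in each miDrp1KO library, with 39.3, 53.6 and 44.5%, against 20.4, 9.51 and 19.6% in controls. The summed level was 2.45, 2.69 and 2.16 CPM per kilobase in controls and 0.791, 1.01 and 0.655 in miDrp1KO muscle. Without *Unc5a* the sum was 0.661, 0.385 and 0.554 CPM per kilobase in controls and 0.511, 0.721 and 0.540 in miDrp1KO muscle, and the groups overlapped. These shares rest on the gene chosen for its fall and carry no test. With coding length in place of exon length the median share of *Unc5a* was 60.5% in controls and 16.7% in miDrp1KO muscle. On that scale *Unc5b* was at 30.9, 45.2 and 32.8% and *Unc5c* at 39.9, 31.0 and 33.5% in replicates A, E and F, so that *Unc5c* had the largest share in A and F.

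**Figure D3:**
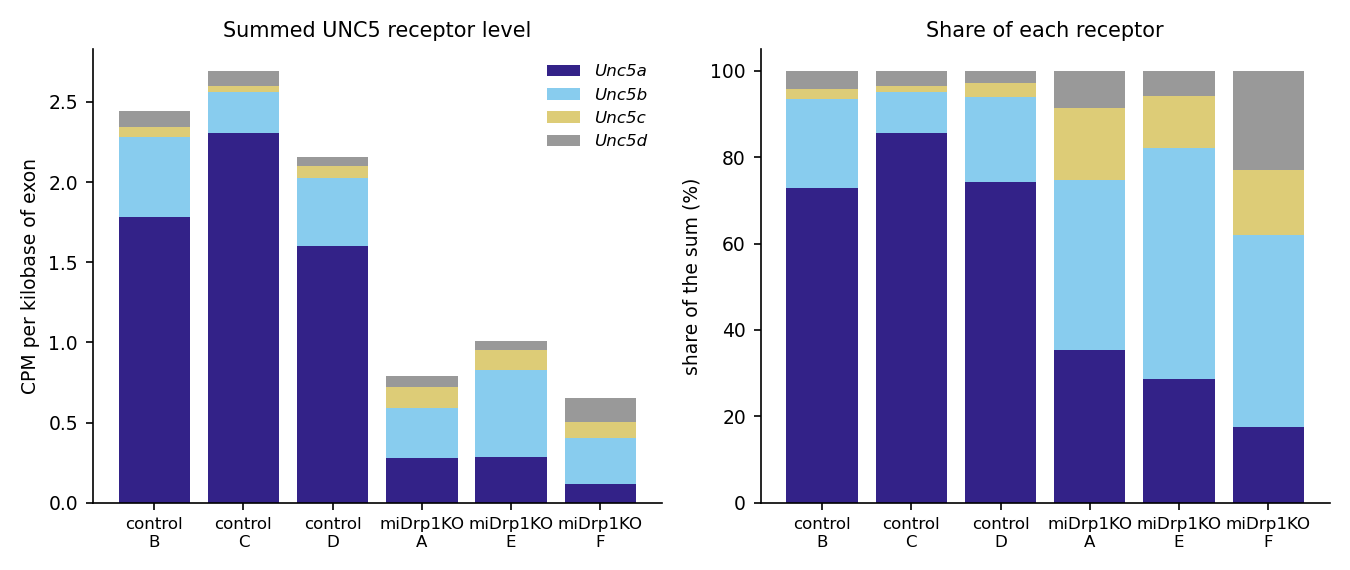
Stacked bars of *Unc5a*, *Unc5b*, *Unc5c* and *Unc5d* in each of the 6 libraries, as CPM per kilobase of exon on the left and as a share (percent) of their sum on the right. *Unc5a* fills 72.9 to 85.7% of the right-hand bar in controls and 17.6 to 35.4% in miDrp1KO libraries.

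Of the attractive receptors, *Dcc* was barely transcribed. Its counts were 16, 2 and 55 in controls and 21, 54 and 33 in miDrp1KO replicates A, E and F, or 0.758, 0.146 and 0.916 CPM against 1.02, 1.32 and 1.58 CPM. The groups did not overlap, but the closest pair differed by only 1.11-fold, and control replicate C, with 2 counts, lowered the control mean. The log2 fold change was 0.99 (SE 0.51, 95% interval -0.15 to 2.12, edgeR adjusted p = 0.518, exact permutation p = 0.1), and it was 0.61 without control replicate C.

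*Neo1*, which encodes neogenin, was the most abundant of the 8 genes per kilobase of exon, while per kilobase of coding sequence *Ntn1* had the higher median in miDrp1KO muscle. It was at 66.0, 60.4 and 67.0 CPM in controls and 63.7, 52.1 and 38.4 CPM in miDrp1KO replicates A, E and F. Replicate A lay inside the control range, while E and F lay below it. The means were 64.5 ± 3.56 and 51.4 ± 12.7 CPM (SD, n = 3 each), with a log2 fold change of -0.33 (SE 0.19, 95% interval -0.75 to 0.10, edgeR adjusted p = 0.567, exact permutation p = 0.2). The interval excludes a fall of the size seen for *Unc5a*.

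The ligands *Ntn1*, encoding the axon guidance protein netrin-1, and *Ntn4*, encoding netrin-4, a component of basement membranes, were both above the controls in replicates E and F. *Ntn1* was at 16.3, 17.1 and 17.5 CPM in controls and 16.6, 29.7 and 24.7 CPM in miDrp1KO replicates A, E and F. *Ntn4* was at 11.6, 8.96 and 11.3 CPM in controls and 10.8, 21.2 and 16.2 CPM in the same miDrp1KO replicates. Replicate A was inside the control range in both genes. Log2 fold changes were 0.48 (SE 0.21, 95% interval 0.03 to 0.93) for *Ntn1* and 0.60 (SE 0.24, 95% interval 0.08 to 1.12) for *Ntn4*. Their unadjusted edgeR p were 0.0379 and 0.0273 and the adjusted p 0.434 and 0.413, and the exact permutation p was 0.3 for each. As a description over 6 libraries of 2 groups that differ in depth and in fibre transcript share, Pearson's r between the ligands was 0.95 overall and 0.90 after the group means were removed, while Spearman's rho was 0.60. Among the 3 controls the 2 ligands did not rank alike.

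Replicate A thus stood nearer to the controls than E and F in some genes and not in others. Set against the control mean, replicates A, E and F were at 97.7, 175 and 146% for *Ntn1*, at 102, 200.4 and 153% for *Ntn4*, and at 98.8, 80.8 and 59.5% for *Neo1*. Replicate A was also the nearest in the myofibre sum, at 82.0, 49.6 and 41.5% of the control mean. The same held for *Nr4a1*, a nuclear receptor gene the study examined, at 109, 51.4 and 41.8%. Replicate E was the farthest for *Ntn1* and *Ntn4*, and F for *Neo1*, the myofibre sum and *Nr4a1*. The paper reports a significant reduction of *Nr4a1* in its RNA-seq of muscle at this time point. It also reports lower transcript and protein in quadriceps by other methods. In the edgeR fit used here, *Nr4a1* had a log2 fold change of -0.57 (SE 0.35, edgeR adjusted p = 0.584) with overlapping groups. The direction was the same, but this fit did not call the fall, and the reason for the different call was not tested. In *Unc5a* replicate A was not the nearest: A, E and F were at 14.7, 15.2 and 6.07%. *Dnm1l* was at 51.6, 59.5 and 48.4%, and *Unc5c* at 240.1, 221 and 178%, so that replicate A lay as far from the control mean as replicate E in these 3 genes.

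**Figure D4:**
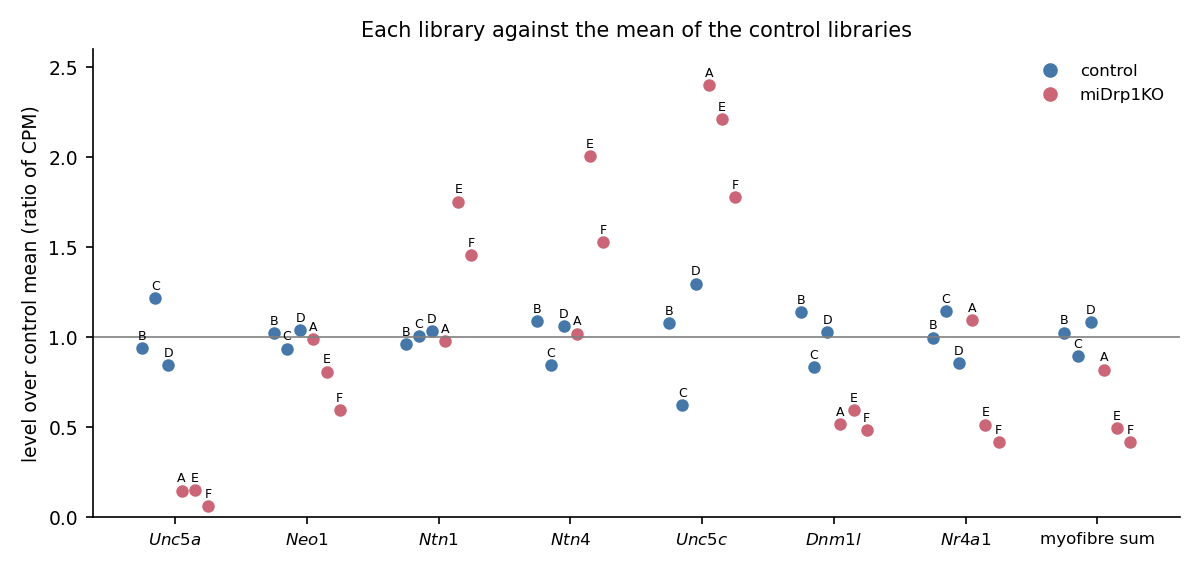
Level of each library as a ratio to the control mean for *Unc5a*, *Neo1*, *Ntn1*, *Ntn4*, *Unc5c*, *Dnm1l*, *Nr4a1* and the sum of the 12 myofibre markers, with replicate letters over the points. Replicate A sits at 0.977 for *Ntn1*, 1.02 for *Ntn4* and 1.09 for *Nr4a1*, and at 0.147 for *Unc5a*, beside E at 0.152.

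Markers of other cell types are given beside these results, and their part in them was not tested. No gene of these lists passed the adjusted threshold in edgeR, and the sums of all lists other than the myofibre one overlapped between the groups. Of the 11 tested Schwann cell and nerve markers, 9 were above 0 on the log2 scale, beside 8572 of all 16483 genes tested. At an unadjusted p under 0.05, 0 of the 11 were lower or higher, beside 6.22% and 4.68% of all genes tested. The summed Schwann cell and nerve markers were 46.7 to 63.2 CPM in controls and 50.7 to 84.0 CPM in miDrp1KO libraries. By library this sum was at 97.1, 161 and 143% of the control mean in replicates A, E and F, the order in which the netrin transcripts stood. The fibroblast, endothelial and satellite cell sums had the same order of the 3 miDrp1KO libraries, with 2553, 3774 and 3091 CPM, 254, 369 and 266 CPM, and 98.4, 116.9 and 116.6 CPM in A, E and F. Replicate A was instead the highest of the 3 in the macrophage, adipocyte, smooth muscle and neuromuscular junction sums. Adipocyte markers had sums of 735 to 1865 CPM in controls and 417 to 908 CPM in miDrp1KO libraries. Their log2 fold changes were below 0 in 10 of 10 genes, beside 7911 of all 16483 genes tested. Of these 10, 5 were lower at an unadjusted p under 0.05 (6.22% of all genes tested were lower at that level). Macrophage markers were higher at that level in 5 of 12 genes (4.68% of all genes tested), with sums of 186 to 335 and 278 to 313 CPM. Fibroblast, satellite cell and smooth muscle markers had overlapping sums of 2175 to 3489 against 2553 to 3774, 106 to 125 against 98.4 to 117, and 492 to 599 against 358 to 517 CPM. Transcripts of the neuromuscular junction and of denervation summed to 135 to 159 CPM in controls and 113 to 138 CPM in miDrp1KO muscle, 2 of 13 tested genes (15.4%) being lower, beside 6.22% of all genes, and 2 (15.4%) higher, beside 4.68%, at an unadjusted p under 0.05. No marker of these lists was at 0 in the libraries.

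The order of levels per kilobase of exon shows the place of *Unc5a* among its relatives. In controls it was *Neo1* (median 7.57, range 6.93 to 7.69 CPM per kilobase), *Ntn4* (3.01), *Ntn1* (2.72), *Unc5a* (1.78, range 1.60 to 2.31), *Unc5b* (0.423), *Unc5d* (0.0949), *Unc5c* (0.0594) and *Dcc* (0.0575). The ranges of *Ntn4* and *Ntn1* overlapped, as did those of *Unc5d*, *Unc5c* and *Dcc* in turn, so on this scale these are not separated beyond their spread. In miDrp1KO muscle *Neo1* (5.98), *Ntn4* (4.32) and *Ntn1* (3.94) overlapped in turn, and *Unc5b* (0.311) stood above *Unc5a* (0.280, range 0.115 to 0.288), which overlapped *Unc5c* (0.122). *Unc5a* thus ranked 4 of 8 in controls and 5 of 8 in miDrp1KO muscle, or 6 of 8 there per kilobase of coding sequence. Per kilobase of coding sequence *Ntn1* (range 8.99 to 9.68) lay above *Ntn4* (4.76 to 6.13) in controls without overlap. *Unc5c* ranked above *Unc5d* there, with overlapping ranges. Across all genes tested the mean of *Unc5a* over the 6 libraries was at percentile 40.6.

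The genes whose pattern was most like that of *Unc5a* over the 6 libraries were found by Pearson's r on log2 CPM among 13564 genes with a mean of at least 1 CPM. They were *D17Wsu92e* (r = 0.996), *Ipo5* (0.987), *Btrc* (0.983), *Sbf1* (0.983) and *Npnt* (0.982). Their own falls were far smaller, with log2 fold changes of -0.65 to -0.37. By rank, 24 genes tied with *Unc5a* at a Spearman rho of 1, of which 1 (*Npnt*, encoding the matrix protein nephronectin) was among these 5. For *Unc5c* the 5 most alike were *Tnfsf15* (r = 0.992), *Sfi1* (0.987), *Tmem251* (0.984), *Snhg14* (0.983) and *Nsun3* (0.980), with log2 fold changes of 0.21 to 1.14. With 6 libraries in 2 groups, such values describe these samples only.

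The other genes of the netrin pathway were counted from a list of 63 in 6 roles, of which 62 were tested. At an unadjusted p under 0.05, 6 of 62 (9.68%, beside 6.22% of all genes) were lower and 1 (1.61%, beside 4.68%) was higher, and 0 passed the adjusted threshold in edgeR. The list as a whole was balanced, with 31 log2 fold changes below 0 and 31 above, and a median of -0.02. The 4 other netrins (*Ntn3*, *Ntn5*, *Ntng1* and *Ntng2*) were all above 0, at 0.08 to 0.89, with 0 of 4 past that p and all at low levels.

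Among other receptors reported to bind netrin, *Mcam*, a cell adhesion molecule of vessels and pericytes, was at 16.4 ± 0.135 CPM in controls and 10.2 ± 0.875 CPM in miDrp1KO muscle (SD, n = 3 each). Its log2 fold change was -0.70 (SE 0.16, adjusted p = 0.362 in edgeR, exact permutation p = 0.1), and the groups did not overlap. *Dscam* and *Dscaml1*, the Down syndrome cell adhesion molecule and its relative, had log2 fold changes of 0.82 and 1.21 that did not pass even the unadjusted p. Of the 8 tested other ligands of UNC5 or DCC family receptors, 4 were above and 4 below 0. None of these 8 passed the unadjusted p, at which 6.22% of all genes tested were lower and 4.68% higher. Hemojuvelin, listed under its older symbol *Hfe2*, was at 371 ± 40.6 and 308 ± 67.5 CPM (SD, n = 3 each). *Robo1*, the Slit receptor that can bind DCC, was the 1 gene of the list that was higher at an unadjusted edgeR p under 0.05. It was at 6.79 ± 0.819 CPM in controls and 10.1 ± 2.55 CPM in miDrp1KO muscle (log2 fold change 0.58, SE 0.22, edgeR adjusted p = 0.393).

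Of the 8 genes through which dependence receptors are known to signal death, such as *Dapk1* and *Maged1*, 5 were below and 3 above 0. None of the 8 passed the unadjusted p. Over all genes tested 6.22% were lower and 4.68% higher at that p, so a count of 0 among 8 is near that share. Of the cytoplasmic genes, the largest of the 6 roles, 5 of 25 were lower at that p (20% of them, beside 6.22% of all genes). *Myo10*, an unconventional myosin that carries DCC and neogenin, was at 101, 73.5 and 112 CPM in controls and 61.6, 49.6 and 30.1 CPM in the miDrp1KO libraries (log2 fold change -1.02, SE 0.26, edgeR adjusted p = 0.362). *Ptpn11*, the phosphatase SHP2 that binds UNC5 receptors, had a log2 fold change of -0.70 and *Rac1*, the GTPase that acts on actin, one of -0.52. *Nck2*, an adaptor, had one of -0.43 and *Prkca*, a protein kinase C that controls receptor traffic, one of -0.50. The groups did not overlap for these genes except *Prkca*, which makes 4 of 25 lower without overlap (16%, beside 10.3% of all genes). Over the whole list of 62, 6 were lower without overlap (9.68%, beside 10.3%) and 3 higher (4.84%, beside 7.67%). *Rac1* shares 2309 of its 4496 exon bases with *Daglb* on the opposite strand, so its count is uncertain. Over the whole list of 62, the number of lower genes was 10 without miDrp1KO replicate A and 3 without control replicate D, and the number of higher genes was 5 without A, 0 without E, and 2 without C, D or F. Calls over all genes were also more without A and fewer without D or E: in either direction they were 1796 of 16483 with all libraries, 3115 of 17845 without A, 951 of 17750 without D and 1203 of 16753 without E.

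**Figure D5:**
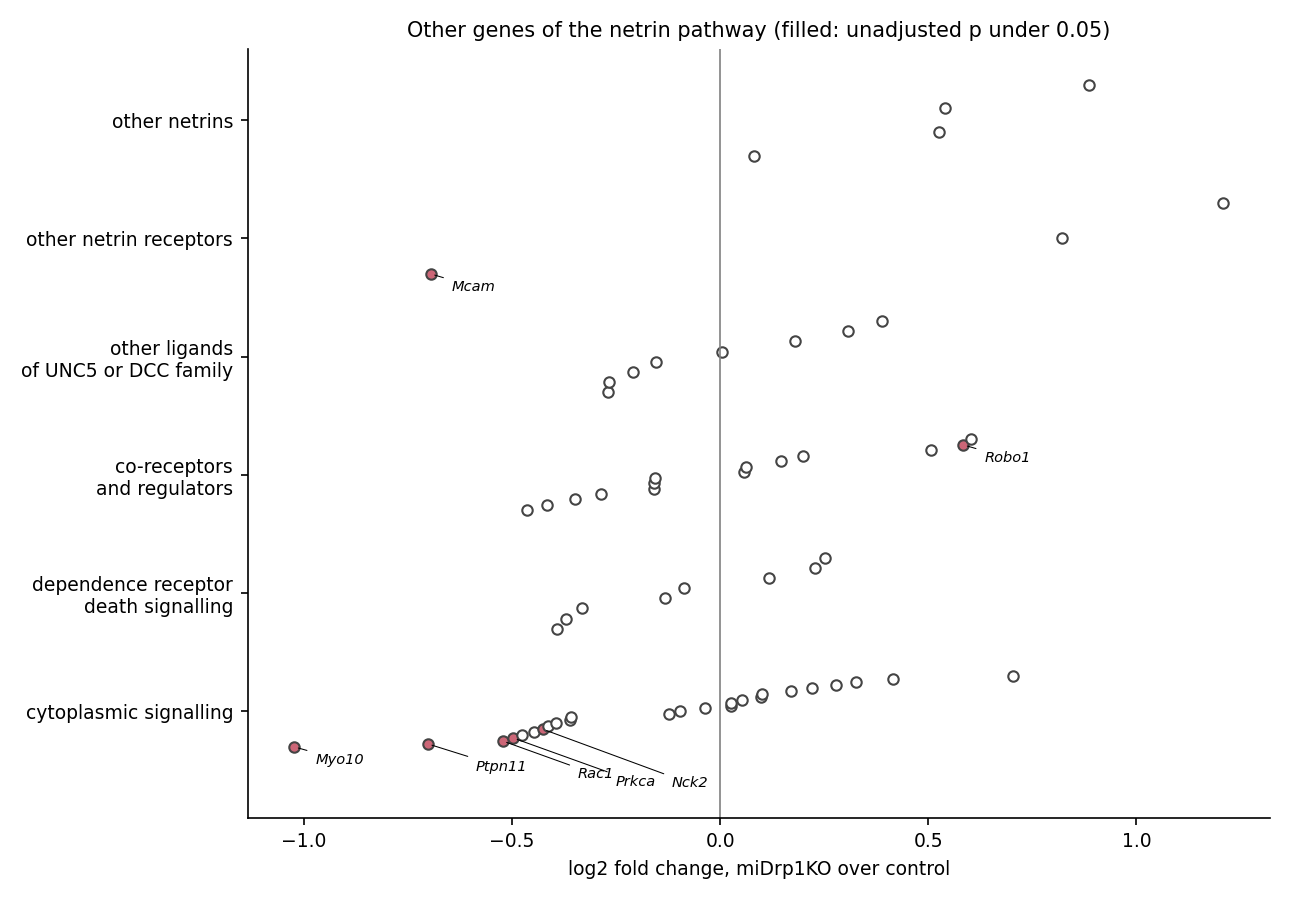
Log2 fold change (miDrp1KO over control, edgeR) of the 62 tested genes of the netrin pathway by role, 1 point per gene, filled and named where the unadjusted p is under 0.05. The 6 genes lower at that p lie between -1.02 (*Myo10*) and -0.43 (*Nck2*), and *Robo1* at 0.58 is the only one higher at that p.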

How the data were processed

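Total RNA of quadriceps from 3 control and 3 miDrp1KO mice was depleted of ribosomal RNA and sequenced from stranded libraries. Per the study's methods, the authors checked reads with FastQC, aligned them to GRCm38 and counted them per gene with Rsubread, and they used DESeq2 1.30.0 for their own comparison. The authors deposited raw counts, 1 file per library, of 27179 genes, 874 without a symbol. The methods describe 2 sequencing pools without saying which library was in which.

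The members and gene lists were chosen with earlier results of these data known. Counts were fitted here in R 4.3.3 with edgeR 4.0.16 (TMM, filterByExpr by genotype, robust quasi-likelihood test, Benjamini-Hochberg adjustment over 16483 genes, threshold 0.05). The estimated biological coefficient of variation was 0.252. CPM use TMM library sizes. Ribosomal RNA genes made up 1.48 to 24.4% of counts. Single genes were compared by exact permutation of the group labels (two-sided, 20 assignments). Alternatives were DESeq2 1.42.0, limma voom (limma 3.58.1), RLE and upper quartile scaling, no filter, at least 10 counts in every library, and leaving out each library. The fit was tested on simulated data. Genes were named by rule: the 8 members, pathway genes with an unadjusted p under 0.05, the 5 most alike by Pearson's r (log2 CPM, prior count 2) to *Unc5a* and to the relative with the lowest p, the 3 tested genes on each side of *Unc5a*, *Dnm1l* and *Nr4a1*. Other genes named (*Esr1*, *Hfe2*, *Dscam*, *Dscaml1*, the 4 other netrins and markers) were chosen after their values were seen. Gene models are those of GENCODE vM21.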

Additional observations from a re-analysis of the deposited data

How the results depend on the processing

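*Unc5a* kept its sign in all 12 alternatives, with log2 fold changes from -3.25 (without miDrp1KO replicate E) to -2.70 (without miDrp1KO replicate F). It was the lowest of all genes tested in 8 of them; it ranked 5 without miDrp1KO replicate A, 2 without E, 2 without F and 158 with no filter on low counts. No relative passed the adjusted threshold in any alternative that gave it an adjusted p. DESeq2 called 94 genes against 2 in edgeR but left all members except *Neo1* (adjusted p = 0.449) without an adjusted p. Upper quartile scaling moved the median of all genes to 0.11. 2 members, *Unc5c* and *Dcc*, did not reach 10 counts in every library.

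The number of relatives higher at an unadjusted p under 0.05 was 1 with limma voom and 2 with at least 10 counts in every library, and ran from 1 to 3 over the fits that left out 1 library. The number lower ran from 0 to 1. Relatives higher without overlap were 0 of the 5 still tested with at least 10 counts in every library (7.71% of all genes), a filter that removes both genes of the main count, and 2 to 4 with a library left out (11.6 to 20.2% of all genes). Those lower without overlap were 0 to 1 with a library left out (10.8 to 17.5% of all genes). Upper quartile scaling turned the shares of all genes without overlap from 10.3% lower and 7.67% higher to 6.9% and 10.9%. For the pathway list the number higher was 2 with limma voom and 3 with upper quartile scaling, and 0 to 5 with a library left out, and the number lower was 4 with upper quartile scaling and 3 to 10 with a library left out. *Unc5b* changed sign with upper quartile scaling (0.043) and ran from -0.41 to 0.16 with a library left out. The log2 ratio of its mean levels was 0.30 with plain library totals, which also moved that of *Neo1* from -0.33 to -0.10, of *Ntn1* from 0.48 to 0.79, of *Ntn4* from 0.60 to 0.93 and of *Unc5d* from 0.11 to 0.33. *Unc5d* ran from -0.38 to 0.40 with a library left out. The cause of these changes was not tested. *Unc5c* ran from 0.81 to 1.31, *Dcc* from 0.61 to 1.46, *Ntn1* from 0.29 to 0.71, *Ntn4* from 0.35 to 0.84 and *Neo1* from -0.49 (without miDrp1KO replicate A) to -0.14 (without F), without a change of sign. Without miDrp1KO replicate A the adjusted p of *Ntn1* and *Ntn4* were 0.0895 and 0.0908, the lowest of their alternatives. With 3 libraries a group, 1 count stands for 0.0167 to 0.0729 CPM, which limits *Unc5d* and *Dcc* most. No paired analysis was possible because no letter occurs in both groups.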

Other observations

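*Flrt1*, encoding a membrane ligand of UNC5 receptors, varied more within the groups than between them. It was at 81.0, 16.6 and 5.01 CPM in the controls B, C and D and at 86.3, 3.21 and 2.98 CPM in the knockouts A, E and F. The high values fell in 1 library of each group. *Enah*, encoding an actin regulator downstream of netrin receptors, had 1 high control library, with 102, 23.0 and 44.8 CPM in controls and 35.8, 57.0 and 31.9 CPM in miDrp1KO muscle. Both genes were picked out after their values were seen, and neither was tested further.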
